A study of Homo sapiens with 12 samples.

Results

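The AP-1 (activator protein 1) factors described here are FOS, FOSB, FOSL1, FOSL2, JUN, JUNB, JUND and ATF3. They were taken by gene symbol from the deposited count tables, and make up 8 of the 47634 gene rows in each library. HepG2 cells derive from a human hepatocellular carcinoma and retain many functions of hepatocytes. The groups, each of 3 libraries that the labels call biological replicates, were ATP7B KO cells in copper, ATP7B KO cells untreated, wild type cells in copper and wild type cells untreated. ATP7B, the gene mutated in Wilson disease, encodes an ATPase that exports copper, and KO stands for knockout. Copper was given for 24 h at a dose the labels do not state, and they name 1 KO line without saying how or where the gene was edited. RNA was measured by 3′ end sequencing in bulk, which takes about 1 fragment from each transcript, close to its poly(A) tail. Levels are therefore given in CPM, the count per 1000000 counts of the library, with no correction for length, also where genes are compared with each other.

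AP-1 is a dimeric transcription factor. FOS family proteins do not dimerize with each other and bind DNA with a JUN family partner, whereas JUN proteins can also pair among themselves. ATF3 is a related basic leucine zipper factor that pairs with JUN proteins or with itself. Several of these genes, FOS, FOSB, JUN, JUNB and ATF3 among them, belong to the immediate early genes, whose transcripts appear soon after growth factors or stress activate MAP kinases and are short-lived. JUND is usually present in resting cells. In mouse liver, JUN is known for its part in hepatocyte survival and regeneration.

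Promoter sequences are shown so that genes whose transcripts rose with copper in both lines can be set beside JUND, whose transcript did not rise. RefSeq promoter windows on GRCh38.p14, which run from 250 bases before to 50 bases after the annotated start, were found for 7 of the 8 genes, all but FOSL1. ATF3 had a window for each of 2 starts, of which the first is shown. The counts themselves were made on hg19, so these coordinates serve the sequences alone. Capitals mark exact matches, on either strand, to TATAAA, a core promoter element, or TGACNTCA (the family of cyclic AMP response elements, to which ATF and JUN dimers can bind).
FOS, chr14:75278578-75278877, plus strand: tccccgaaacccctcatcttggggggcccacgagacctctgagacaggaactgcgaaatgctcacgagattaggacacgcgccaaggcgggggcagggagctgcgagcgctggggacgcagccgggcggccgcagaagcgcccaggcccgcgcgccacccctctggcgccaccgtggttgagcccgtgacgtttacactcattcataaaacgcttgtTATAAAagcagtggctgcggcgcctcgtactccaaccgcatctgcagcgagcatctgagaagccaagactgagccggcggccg
FOSB, chr19:45467746-45468045, plus strand: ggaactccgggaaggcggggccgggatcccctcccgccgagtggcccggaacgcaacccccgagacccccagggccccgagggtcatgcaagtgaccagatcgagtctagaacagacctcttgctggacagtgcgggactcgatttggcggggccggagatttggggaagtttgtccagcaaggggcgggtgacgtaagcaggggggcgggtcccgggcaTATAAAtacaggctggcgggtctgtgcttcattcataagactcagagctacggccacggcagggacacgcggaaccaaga
JUNB, chr19:12791236-12791535, plus strand: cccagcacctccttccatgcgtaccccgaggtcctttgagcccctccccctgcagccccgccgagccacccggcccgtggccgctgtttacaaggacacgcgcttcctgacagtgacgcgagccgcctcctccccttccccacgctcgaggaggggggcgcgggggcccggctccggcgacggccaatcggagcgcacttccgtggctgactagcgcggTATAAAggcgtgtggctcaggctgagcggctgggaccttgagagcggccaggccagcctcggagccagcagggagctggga
JUN, chr1:58783998-58784297, minus strand: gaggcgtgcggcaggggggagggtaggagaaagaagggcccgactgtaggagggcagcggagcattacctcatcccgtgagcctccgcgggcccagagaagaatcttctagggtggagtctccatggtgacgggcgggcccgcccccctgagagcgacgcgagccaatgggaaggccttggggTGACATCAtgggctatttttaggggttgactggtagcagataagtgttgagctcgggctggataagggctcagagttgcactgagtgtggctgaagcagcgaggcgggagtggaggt
ATF3, chr1:212565157-212565456, plus strand: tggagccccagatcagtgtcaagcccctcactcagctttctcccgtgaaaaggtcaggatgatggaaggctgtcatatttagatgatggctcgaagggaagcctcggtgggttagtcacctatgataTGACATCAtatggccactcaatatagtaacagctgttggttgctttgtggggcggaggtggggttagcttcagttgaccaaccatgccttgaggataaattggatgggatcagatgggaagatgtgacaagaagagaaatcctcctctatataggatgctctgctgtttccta
JUND, chr19:18281573-18281872, minus strand: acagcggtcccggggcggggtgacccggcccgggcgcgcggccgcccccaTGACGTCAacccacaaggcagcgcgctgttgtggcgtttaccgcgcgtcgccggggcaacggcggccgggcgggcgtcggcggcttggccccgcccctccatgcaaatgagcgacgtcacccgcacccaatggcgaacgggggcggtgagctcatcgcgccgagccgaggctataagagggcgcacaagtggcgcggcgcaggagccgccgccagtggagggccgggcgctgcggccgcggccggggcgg

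FOS, FOSB and JUNB held TATAAA, beginning at positions -33, -30 and -31 relative to the start. JUN and the first ATF3 window held TGACATCA, beginning at positions -67 and -123. JUND held TGACGTCA, which reads the same on both strands, at position -200, and no exact TATAAA. Near matches were not searched for in any window, and the JUND window shown holds TATAAG before its start. FOSL2 held the AP-1 element TGACTCA, beginning at position 5 after its start. The second ATF3 window held TATAAA at -230. CCAAT, a common promoter box, was in JUN, JUNB, JUND and, on the minus strand, the first ATF3 window, at -87, -67, -74 and -25. JUN also held GAANNTTC (the core of heat shock elements) at -150, and JUND held TGACNNNGC (the core of antioxidant response elements) at -230 and, on the minus strand, at -90. Among all 35116 windows of this length, TATAAA was in 11.5%, TGACNTCA in 7.72%, TGANTCA in 7.71%, CCAAT in 34.6%, GAANNTTC in 6.77% and TGACNNNGC in 13.35%, with any overlaps between the motifs counted for each. The CArG box, which serum response factor binds, was in 1.29% of windows and in no window of these genes. Sites outside the windows, further from the start, were not searched. A match is a description of these letters and does not show that a factor binds there.

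Libraries held 976658 to 3829151 counts, so that 3 counts equalled 0.783 to 3.07 CPM. ATP7B was at 3.92 to 6.77 CPM in KO copper, 2.05 to 11.6 CPM in KO untreated, 3.87 to 5.34 CPM in wild type copper and 12.4 to 13.1 CPM in wild type untreated libraries. A 3′ tag outside an unstated edit does not check the KO label. ATP7B KO untreated replicates 1 and 2 and wild type copper replicate 1 stood apart, at 111, 120.4 and 23.9 on the first principal component, which held 44.2% of the variance, with the other 9 libraries below 0. Those 3 were also the shallowest, at 1443372, 976658 and 1873703 counts, against 2295050 or more in the others. They had the fewest genes with counts, 14232, 13481 and 15012, against 15836 or more. The part of depth in their position was not tested. All 10 hepatocyte markers on a list were counted in every group, and their summed level was 3751 to 3965 CPM in KO copper, 8760.5 to 10558.5 CPM in KO untreated, 8594 to 9511 CPM in wild type copper and 18394.5 to 19195.5 CPM in wild type untreated libraries. Fibroblast, endothelial and leukocyte lists summed to at most 56.9, 10.2 and 23.5 CPM in any library, with KDR, CD3E and MS4A1 at 0 throughout. Counts from mitochondrial genes were 8.34% to 9.46% of the total in KO copper, 5.82% to 8.85% in KO untreated, 6.58% to 8.59% in wild type copper and 2.97% to 3.80% in wild type untreated libraries. The hepatocyte marker sum was lower with copper in each line and lower in KO than in wild type cells in each treatment. The mitochondrial share was lowest in wild type untreated libraries, and its ranges overlapped among the other groups. The part of either in the AP-1 results was not tested. In bulk RNA, fewer cells of a kind and less RNA per cell cannot be told apart, for any gene below.

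With copper, 7 of the 8 AP-1 transcripts rose and JUND fell in KO cells, where 15.2% of the 11051 genes tested rose, 18.5% fell and 33.7% were called in all. In wild type cells FOS, FOSB, FOSL1, JUN, JUNB and ATF3 rose, 6 of 8, and none fell, where 14.9% of genes were called, 8.23% as higher and 6.68% as lower. Leaving out the 3 libraries that stood apart keeps 1 KO untreated library, whose spread is then taken from the other groups. In that setting the same 6 genes rose in each line, FOSL2 and JUND were not called in KO cells, and JUND was called lower in wild type cells. There 41.8% of all genes were called in KO cells and 42.5% in wild type cells. All 8 genes passed the filter on low counts. Calls are at an adjusted p under 0.05 in edgeR's quasi-likelihood test, adjusted by the Benjamini-Hochberg method over all 11051 genes, and each log2 fold change is given with its standard error (SE). The CPM ranges of copper and untreated libraries did not overlap for 7 of the 8 genes in either line, JUND being the exception, against 44.3% of genes tested in KO cells and 48.4% in wild type cells.

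**Figure D1:**
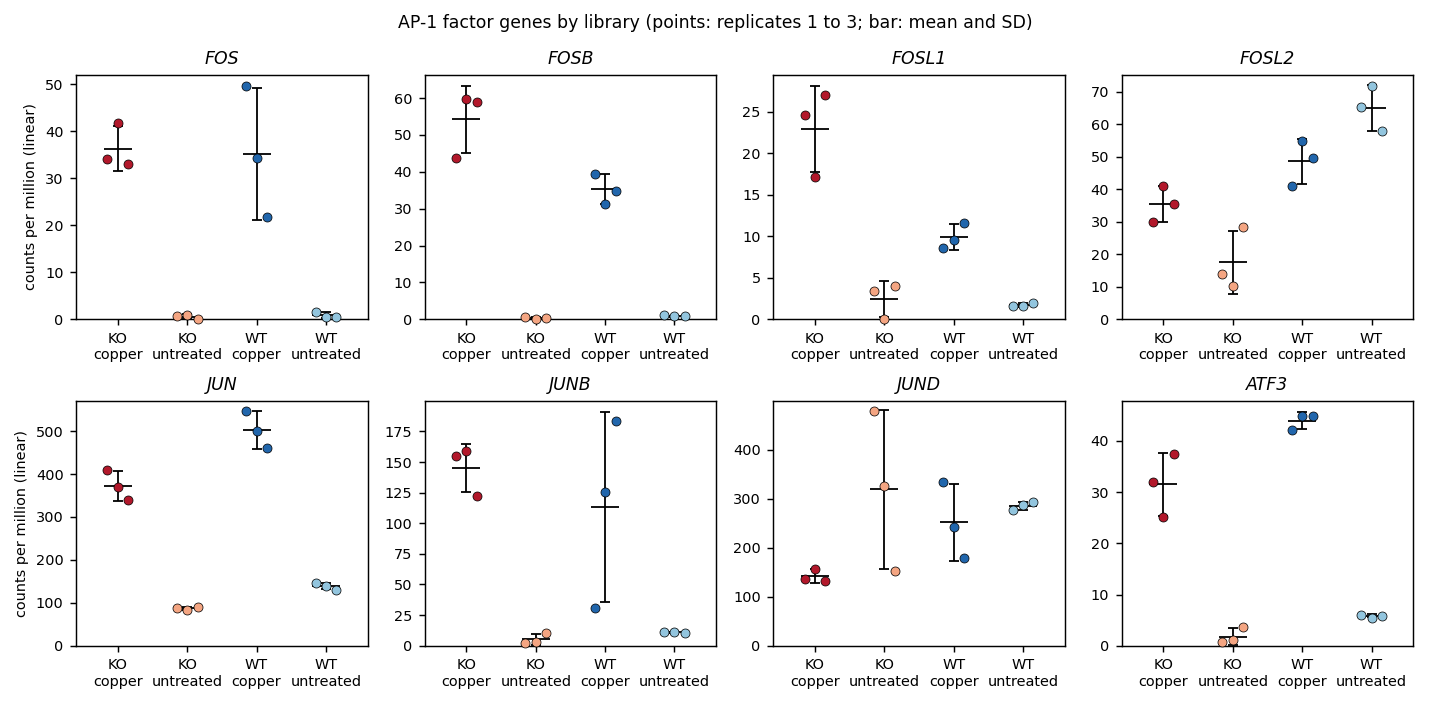
CPM (linear axes) of each AP-1 gene in every library, by group, where points are replicates 1 to 3 and bars are the mean and SD of n = 3. FOS, FOSB, FOSL1, JUN, JUNB and ATF3 were higher in every copper library than in every untreated library of the same line, while FOSL2 and JUND followed other orders.

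FOS, the founding member of its family, was nearly uncounted without copper and was readily counted with it. It was at 34.2, 41.9 and 33.0 CPM in KO copper replicates 1 to 3, against 0.693, 1.02 and 0 CPM in KO untreated replicates 1 to 3. The KO untreated values stand for 1, 1 and 0 counts, and the 0 in replicate 3 allows up to 0.915 CPM. Copper and untreated libraries did not overlap. Pooled over the groups, the ratio was 103, with an exact 95% counting interval of 28.3 to 856 (279 counts against 2), which covers counting error only. In wild type cells FOS was at 49.6, 34.4 and 21.7 CPM in copper, against 1.58, 0.522 and 0.562 CPM untreated. Those groups did not overlap either, and the wild type copper libraries spread more widely than the KO copper ones. FOS rose in both lines, by 6.59 ± 0.67 in KO cells (fitted log2 fold change, which at such low counts depends on the prior count; adjusted p = 4.3e-05) and by 5.25 ± 0.51 in wild type cells (adjusted p = 8.0e-05). Without KO untreated replicate 3 the KO value was 5.39 ± 0.67, without KO untreated replicate 2 it was 7.24 ± 0.78, and without wild type untreated replicate 1 the wild type value was 5.93 ± 0.63, all past the threshold. When the 3 libraries that stood apart were left out, the KO value of 9.79 ± 0.83 was fitted against 0 counts in the 1 untreated library left and is no measure of size.

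FOSB, which like FOS carries a transactivation domain, had a similar course. It was at 43.8, 59.9 and 58.9 CPM in KO copper, against 0.693, 0 and 0.305 CPM in KO untreated libraries, or 414 counts against 2 over the groups. The pooled ratio was 153, with a counting interval of 42.1 to 1268. Wild type cells had 39.5, 31.4 and 34.9 CPM in copper, against 1.05, 0.783 and 0.842 CPM untreated. Copper and untreated values did not overlap in either line, and all 3 KO copper values lay above the wild type copper ones. The log2 fold change was 7.21 ± 0.41 in KO cells (adjusted p = 1.3e-06) and 5.25 ± 0.32 in wild type cells (adjusted p = 1.6e-06), the smallest adjusted p among the AP-1 genes in each. FOSB overlaps ERCC1, a DNA repair gene on the opposite strand that had 97, 49, 134 and 147 counts in KO copper, KO untreated, wild type copper and wild type untreated libraries. Whether counting used strand was not given in the sources used here; without strand, the reads of the pair cannot be told apart. The same holds for the overlapping pairs of FOSL2 and JUNB below.

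FOSL1 (FRA1) and FOSL2 (FRA2) lack the strong transactivation domain of FOS. FOSL1 was at 24.6, 17.2 and 27.1 CPM in KO copper libraries, against 3.46, 0 and 3.97 CPM in KO untreated libraries. The 0, in the shallowest library, allows up to 3.07 CPM, close to the values of the other two. In wild type cells FOSL1 was at 8.54, 9.59 and 11.6 CPM in copper, against 1.58, 1.57 and 1.97 CPM untreated. It rose by 3.07 ± 0.45 in KO cells (log2, adjusted p = 0.00046) and by 2.54 ± 0.45 in wild type cells (adjusted p = 0.0033), with no overlap in either line.

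FOSL2 had a different order. It was at 29.9, 41.0 and 35.4 CPM in KO copper libraries, against 13.9, 10.2 and 28.4 CPM in KO untreated libraries. In wild type cells it was at 41.1, 54.9 and 49.6 CPM in copper, against 65.4, 71.8 and 57.8 CPM untreated. The ranges did not overlap in either line, with copper above untreated in KO cells and below it in wild type cells. FOSL2 rose in KO cells (log2 fold change 1.07 ± 0.29, adjusted p = 0.016), while the wild type value was -0.40 ± 0.27 (adjusted p = 0.35). The KO call ended without KO untreated replicate 1 (0.91 ± 0.32, adjusted p = 0.059) or KO copper replicate 2 (0.96 ± 0.33, adjusted p = 0.058), when only the 2 groups were fitted (1.03 ± 0.37, adjusted p = 0.090), and without the 3 libraries that stood apart (0.51 ± 0.21, adjusted p = 0.055). FOSL2 overlaps the antisense gene FLJ31356, which had 1, 0, 15 and 13 counts in KO copper, KO untreated, wild type copper and wild type untreated libraries, against 271, 123, 331 and 729 for FOSL2 itself.

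JUN, a partner that the FOS proteins share, was the most abundant AP-1 transcript in copper. KO cells had 409, 369 and 340.0 CPM in copper, against 88.0, 82.9 and 89.7 CPM untreated. Wild type cells had 548, 501 and 460.1 CPM in copper, against 145, 139 and 131 CPM untreated. The 4 groups did not overlap with each other, and libraries within a group lay close together. JUN rose 4.65-fold in KO cells (log2 fold change 2.22 ± 0.18, adjusted p = 8.1e-06) and 3.70-fold in wild type cells (1.89 ± 0.18, adjusted p = 5.3e-05).

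JUNB, a JUN paralog with weaker transactivation of its own, was at 155, 159 and 122 CPM in KO copper libraries, against 2.08, 3.07 and 10.1 CPM in KO untreated libraries. Wild type cells had 30.4, 125 and 184 CPM in copper, against 10.8, 10.97 and 10.7 CPM untreated. The copper libraries lay above the untreated ones in both lines, and wild type copper replicate 1 was far below replicates 2 and 3. JUNB rose by 4.75 ± 0.62 in KO cells (log2, adjusted p = 0.00026) and by 3.40 ± 0.55 in wild type cells (adjusted p = 0.0020). The KO untreated values stand for 3, 3 and 33 counts. Without KO untreated replicate 3 the KO value was 5.85 ± 0.82, past the threshold and fitted on 3 counts in each KO untreated library left. Without the 3 libraries that stood apart, which leaves 1 KO untreated library, the value was 4.04 ± 0.28. JUNB overlaps HOOK2 on the opposite strand, which had 64, 61, 89 and 107 counts in KO copper, KO untreated, wild type copper and wild type untreated libraries.

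JUND, the JUN paralog of resting cells, was at 137, 157 and 131 CPM in KO copper libraries, against 479, 326 and 153 CPM in KO untreated libraries. KO untreated replicate 3 lay within the KO copper range, and replicates 1 and 2, which stood apart, lay above it. Wild type cells had 335, 241 and 179 CPM in copper, against 278, 286 and 294 CPM untreated, so that copper libraries lay on both sides of the untreated ones. JUND was called lower in KO cells (log2 fold change -1.07 ± 0.36, adjusted p = 0.039) and was at -0.16 ± 0.36 in wild type cells (adjusted p = 0.81). Without the 3 libraries that stood apart the KO value was 0.089 ± 0.14 (adjusted p = 0.66) and the wild type value was -0.39 ± 0.11, past the threshold (adjusted p = 0.0043). The KO call also ended without any 1 of 9 libraries, which were the 3 wild type untreated ones, wild type copper replicate 2, KO untreated replicates 1 and 2 and the 3 KO copper ones (adjusted p 0.054 to 0.19), with only the 2 groups fitted (0.10) and in limma voom (0.067).

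**Figure D2:**
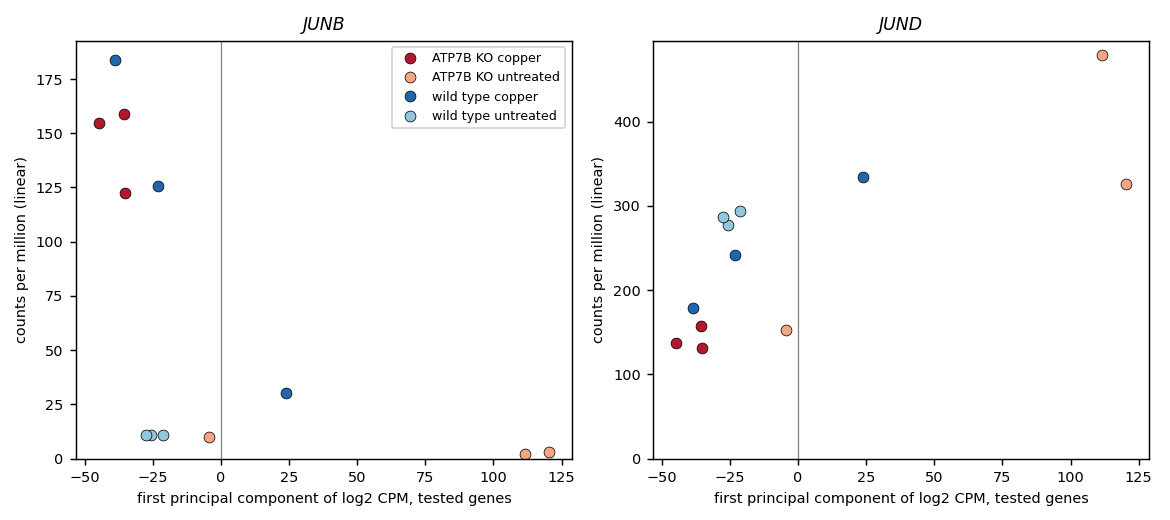
CPM (linear) of JUNB and of JUND in each of the 12 libraries against the library's position on the first principal component of log2 CPM over the tested genes. The 3 libraries to the right of 0 are wild type copper replicate 1 and KO untreated replicates 1 and 2. In JUND they held 335, 479 and 326 CPM, above every other library, and in JUNB they held 30.4, 2.08 and 3.07 CPM, each below the remaining libraries of its group.

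ATF3, a stress-inducible factor that can repress or activate its targets, was at 32.1, 25.1 and 37.4 CPM in KO copper libraries, against 0.693, 1.02 and 3.66 CPM in KO untreated libraries. Wild type cells had 42.2, 44.9 and 44.9 CPM in copper, against 6.06, 5.48 and 5.90 CPM untreated. The 4 groups did not overlap with each other. ATF3 rose by 3.91 ± 0.37 in KO cells (log2, adjusted p = 2.6e-05) and by 2.94 ± 0.30 in wild type cells (adjusted p = 0.00012). The KO untreated values stand for 1, 1 and 12 counts. Without KO untreated replicate 3 the KO value was 5.18 ± 0.47, past the threshold. It was fitted on 1 count in each KO untreated library left, so its size is uncertain. Without the 3 libraries that stood apart, which leaves 1 KO untreated library, the value was 3.29 ± 0.35.

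**Figure D3:**
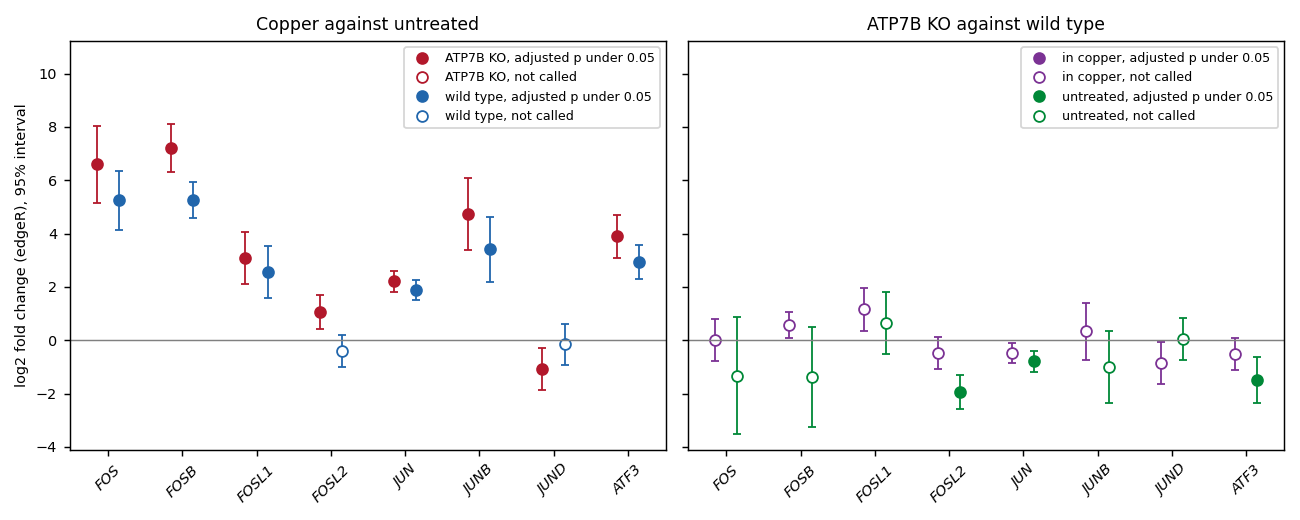
Log2 fold changes from edgeR with 95% intervals for the 8 AP-1 genes, copper against untreated in each line on the left and ATP7B KO against wild type in each treatment on the right. Filled points passed the threshold and open points did not. For FOS and FOSB in KO cells the values are fitted on 2 untreated counts each. On the left the KO interval lies above 0 for 7 genes, and on the right the filled points are FOSL2, JUN and ATF3 in untreated cells.

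Between the lines, FOSL2, JUN and ATF3 were lower in KO than in wild type cells when untreated, 3 of 8, where 31.9% of genes were called, 17.9% as higher and 14.0% as lower. No AP-1 gene was called higher. The CPM ranges did not overlap for 5 genes, FOSB, FOSL2, JUN, JUNB and ATF3, against 44.7% of genes tested. FOSL2 averaged 17.5 ± 9.6 CPM in KO untreated and 65.0 ± 7.0 CPM in wild type untreated libraries (SD, n = 3 each), a log2 fold change of -1.95 ± 0.29 (adjusted p = 0.00092). JUN averaged 86.9 ± 3.5 CPM in KO and 138 ± 7.3 CPM in wild type libraries (-0.79 ± 0.17, adjusted p = 0.0061). ATF3 averaged 1.79 ± 1.63 CPM in KO and 5.81 ± 0.30 CPM in wild type libraries (-1.48 ± 0.40, adjusted p = 0.016). The ATF3 call ended without KO untreated replicate 1 (-1.16 ± 0.38, adjusted p = 0.0505) and without the 3 libraries that stood apart (-0.85 ± 0.44, adjusted p = 0.13), and without KO untreated replicate 3 the value was -2.76 ± 0.61. The value without replicate 3 rests on 1 ATF3 count in each KO untreated library left. With only the 2 groups fitted, ATF3 (adjusted p = 0.099) and JUN (0.0546) did not pass.

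The other 5 genes did not pass the threshold between untreated lines. FOS and FOSB had 2 counts each in KO and 10 each in wild type libraries, a ratio of 0.393 with a counting interval of 0.0418 to 1.84, so a difference was not detectable at this depth. JUNB was at -1.01 ± 0.62 (adjusted p = 0.22), at -2.12 ± 1.04 without KO untreated replicate 3 and at -0.30 ± 0.35 without the 3 libraries that stood apart, and it was called lower in KO with no filter on low counts (adjusted p = 0.041). FOSL1 was at 0.64 ± 0.54 (adjusted p = 0.37). JUND was at 0.051 ± 0.36 (adjusted p = 0.92), and without the 3 libraries that stood apart it was called lower in KO at -1.10 ± 0.15 (adjusted p = 3.5e-07).

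In copper, 0 of the 8 genes were called between the lines, where 13.8% of genes were, 5.77% as higher and 8.03% as lower. At an unadjusted p under 0.05 there were 4, against 29.4% of all genes, with FOSL1 (1.17 ± 0.37, adjusted p = 0.054) and FOSB (0.58 ± 0.22, adjusted p = 0.0999) higher in KO cells and JUN (-0.46 ± 0.17, adjusted p = 0.089) and JUND (-0.86 ± 0.36, adjusted p = 0.13) lower. DESeq2 called 2, FOSL1 and JUN, where it called 18.3% of all genes, and limma voom called 1, FOSL1, where it called 14.7%. CPM ranges did not overlap between the lines for FOSB, FOSL1, FOSL2, JUN, JUND and ATF3, against 46.3% of genes tested. Without KO untreated replicate 3, or without the 3 libraries that stood apart, 6 genes were called, namely FOSB and FOSL1 as higher in KO and FOSL2, JUN, JUND and ATF3 as lower, where 32.0% and 40.2% of all genes were called. Without KO untreated replicate 1 or replicate 2, FOSL1 alone was called (adjusted p = 0.043 and 0.0092), where 16.8% of all genes were called in each. None of these KO untreated libraries belongs to either group compared, although they enter the same fit. Wild type copper replicate 1, which is among the 3 that stood apart, does belong to a group compared. FOS was at 0.018 ± 0.36 (95% interval -0.77 to 0.81) and JUNB at 0.33 ± 0.49 (95% interval -0.73 to 1.40), with overlapping CPM ranges.

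The difference between the copper effects in the lines, KO minus wild type, was called for 0 of the 8 genes, where 4.93% of genes were called, 1.26% as higher and 3.67% as lower. FOSL2 came closest, at 1.47 ± 0.40 (log2, adjusted p = 0.052), followed by FOSB at 1.96 ± 0.82 (adjusted p = 0.13). These were the 2 genes at an unadjusted p under 0.05, against 32.6% of all genes. FOSL2 was called by DESeq2 (1.38 ± 0.42, adjusted p = 0.014) and not by limma voom, which called 0. DESeq2 called 16.6% of all genes there and limma voom 1.45%. Without KO untreated replicate 3, 3 genes were called, FOSL2 (1.87 ± 0.33, adjusted p = 0.00028), ATF3 (2.19 ± 0.68, adjusted p = 0.013) and JUND (-1.39 ± 0.31, adjusted p = 0.0017), where 52.4% of all genes were called. ATF3 then had 1 count in each KO untreated library left. Without the 3 libraries that stood apart 0 of the 8 were called, against 9.36% of all genes, with FOSL2 at 0.77 ± 0.26, ATF3 at 0.29 ± 0.48 and JUND at 0.48 ± 0.18. The intervals were wide for FOS, -0.995 to 3.68, and narrower for JUN, -0.20 to 0.86.

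Summed over the 8 genes, AP-1 transcripts averaged 840.1 ± 47.3 CPM in KO copper, 434 ± 150.0 CPM in KO untreated, 1041 ± 54.2 CPM in wild type copper and 509 ± 7.1 CPM in wild type untreated libraries (SD, n = 3 each). JUND was the most abundant of the 8 in both untreated groups and JUN in both copper groups. JUND made up 15.8%, 18.1% and 16.7% of the sum in KO copper libraries, against 81.4%, 76.8% and 52.9% in KO untreated libraries. In wild type cells its share was 30.6%, 23.1% and 18.2% in copper, against 54.5%, 55.4% and 58.5% untreated. JUN made up 42.4% to 47.3% of the sum in KO copper and 14.96% to 31.1% in KO untreated libraries, and 46.7% to 50.1% in wild type copper and 26.0% to 28.5% in wild type untreated libraries.

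The ratio of FOS family to JUN family transcripts was 0.189 to 0.260 in KO copper, 0.0274 to 0.129 in KO untreated, 0.143 to 0.152 in wild type copper and 0.141 to 0.171 in wild type untreated libraries. It was thus higher in every KO copper library than in every other library, and the wild type ranges with and without copper overlapped. Within the FOS family, FOSL2 was first by mean in both untreated groups and in wild type copper, and FOSB was first in KO copper. In wild type copper replicate 1, FOS (49.6 CPM) was above FOSL2 (41.1 CPM). In wild type untreated libraries FOS and FOSB, the lowest of the 8, overlapped, and every other pair of neighbours in the order of levels was apart. In wild type copper libraries JUND, JUNB, FOSL2, ATF3 and FOS each overlapped the next gene down in mean level. In KO untreated libraries JUNB, FOSL1, ATF3 and FOS did so, and in KO copper libraries JUNB, FOS, FOSL2 and ATF3 did so.

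**Figure D4:**
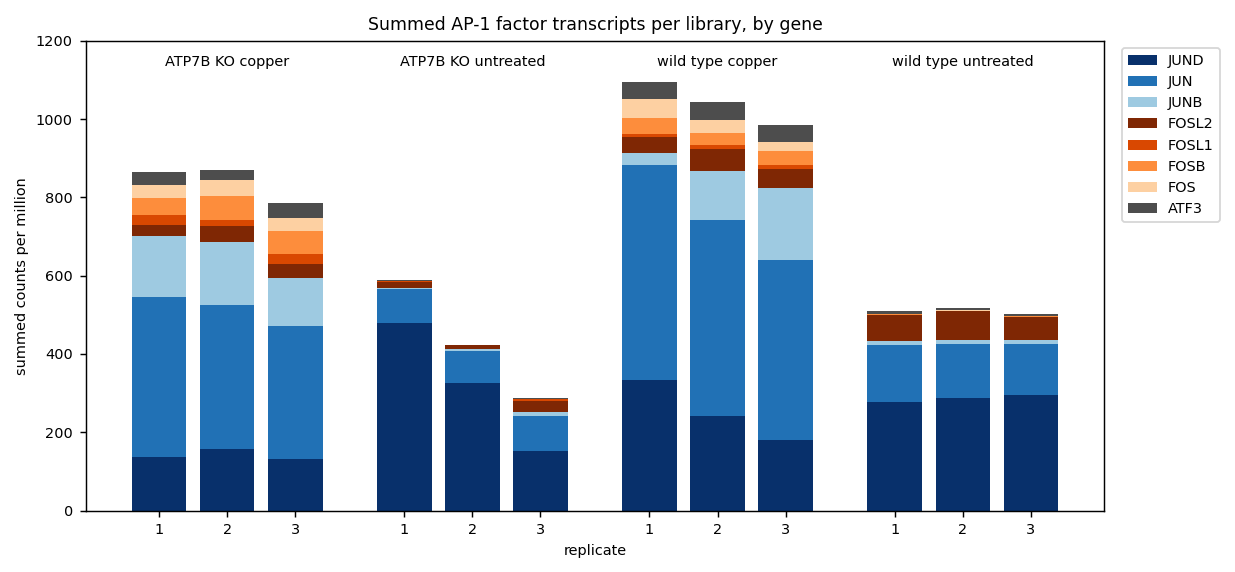
Summed CPM of the 8 AP-1 genes in each library, stacked by gene, with replicates 1 to 3 of each group side by side. JUND fills most of each untreated bar and JUN the largest part of each copper bar, and the KO untreated bars run from 289 to 588 CPM while the wild type untreated bars run from 503 to 517 CPM.

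Other genes of the AP-1 pathway were counted on 5 lists, to be read against the 33.7% of all genes called with copper in KO cells and the 14.9% in wild type cells. Of 21 tested immediate early genes outside AP-1, 16 rose and 2 fell with copper in KO cells (median log2 fold change 1.90, against 0.0062 over all genes), and 10 rose and 1 fell in wild type cells (median 1.28, against -0.026). EGR1, a zinc finger factor of the early growth response, averaged 50.1 ± 4.5 CPM in KO copper and 4.84 ± 0.72 CPM in KO untreated libraries (3.47 ± 0.22, adjusted p = 1.9e-06), and 164 ± 10.4 CPM in wild type copper and 5.62 ± 0.56 CPM in wild type untreated libraries (4.88 ± 0.21, adjusted p = 1.0e-07). PPP1R15A (GADD34), which directs the dephosphorylation of eIF2α, rose by 3.53 ± 0.32 in KO cells (adjusted p = 1.9e-05) and by 2.56 ± 0.30 in wild type cells (adjusted p = 0.00031). Between untreated lines 0 of the 21 were higher in KO and 10 were lower, where 17.9% and 14.0% of all genes were. CCN2 was the most clearly lower (-4.00 ± 0.34, adjusted p = 2.6e-05).

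Of 25 tested dimer partners and other basic leucine zipper factors, 11 rose and 3 fell with copper in KO cells (median 0.62), and 7 rose and 1 fell in wild type cells (median 0.40). Without the 3 libraries that stood apart, 12 rose and 3 fell in KO cells, and 13 rose and 2 fell in wild type cells, where 41.8% and 42.5% of all genes were called. MAFF, a small MAF protein without a transactivation domain, averaged 90.5 ± 3.4 CPM in KO copper and 3.49 ± 1.91 CPM in KO untreated libraries, and 78.0 ± 6.7 CPM in wild type copper and 20.8 ± 3.5 CPM in wild type untreated libraries. It rose in both lines (4.82 ± 0.31 in KO, adjusted p = 2.2e-06; 1.93 ± 0.24 in wild type, adjusted p = 0.00048), and the difference of the 2 effects was called (2.89 ± 0.39, adjusted p = 0.0066). JDP2, a repressor that pairs with JUN, rose in wild type cells (1.91 ± 0.22, adjusted p = 0.00023), where it averaged 107 ± 18.2 CPM in copper and 29.01 ± 3.2 CPM untreated. Its difference of copper effects was -1.23 (adjusted p = 0.044), a call lost in 12 of 18 alternatives. In copper JDP2 was lower in KO than in wild type cells (-1.13, adjusted p = 0.0048). Between untreated lines 1 factor was higher in KO and 12 were lower, where 17.9% and 14.0% of all genes were. Among the lower ones was NFE2L1, a regulator of proteasome genes (-1.42 ± 0.17, adjusted p = 0.00028).

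Of 27 tested MAP kinases and partners of serum response factor, which act upstream of AP-1, 4 rose and 2 fell with copper in KO cells, and 4 rose and 1 fell in wild type cells. The medians were 0.20 and -0.17. The kinase RPS6KA3 (RSK2) fell in KO cells (-2.55 ± 0.36, adjusted p = 0.00038), and by 1.41 ± 0.12 without the 3 libraries that stood apart. Phosphorylation, which sets kinase activity, was not measured. Among 15 tested restraints on AP-1, such as MAP kinase phosphatases and RNA decay factors, 7 rose and 2 fell in KO cells and 2 rose and 1 fell in wild type cells. The phosphatase DUSP5 rose in both, by 3.18 ± 0.40 in KO cells (adjusted p = 0.00021; 3.87 ± 0.54 without KO untreated replicate 3) and 2.66 ± 0.34 in wild type cells (adjusted p = 0.00052). DUSP1 averaged 20.6 ± 5.7 CPM in KO copper and 1.35 ± 1.77 CPM in KO untreated libraries (3.54 ± 0.64, adjusted p = 0.0017), and 14.96 ± 10.2 CPM in wild type copper and 15.9 ± 1.1 CPM in wild type untreated libraries (adjusted p = 0.97). The KO untreated mean of DUSP1 lies below the CPM of 3 counts in replicates 1 and 2 (2.08 and 3.07), so its size without replicate 3 is uncertain. The KO value of DUSP1 was 5.50 ± 0.98 without KO untreated replicate 3, past the threshold, and 2.81 ± 0.45 without the 3 libraries that stood apart. Without those 3 libraries, the wild type counts became 6 rising and 6 falling kinases and partners, and 4 rising and 2 falling restraints, where 42.5% of all genes were called.

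Of 22 tested genes known as AP-1 targets, 12 rose and 2 fell with copper in KO cells (median 1.45), and 10 rose and 1 fell in wild type cells (median 0.78). IL11, a cytokine, averaged 181 ± 23.3 CPM in KO copper and 1.04 ± 1.26 CPM in KO untreated libraries (7.04 ± 0.46, adjusted p = 2.2e-06), and 59.8 ± 19.0 CPM in wild type copper and 4.02 ± 0.32 CPM in wild type untreated libraries (3.90 ± 0.36, adjusted p = 5.5e-05). The KO value of IL11 was 8.62 ± 0.54 without KO untreated replicate 3 and 6.38 ± 0.29 without the 3 libraries that stood apart. Its KO untreated mean lies below the CPM of 3 counts in replicates 1 and 2 (2.08 and 3.07). The size without replicate 3 is therefore uncertain. HMOX1, the inducible haem oxygenase, which is also a target of other factors, rose by 2.71 ± 0.33 in KO cells (adjusted p = 0.00015; 3.58 ± 0.14 without the 3 libraries that stood apart) and by 4.20 ± 0.35 in wild type cells (adjusted p = 2.7e-05). In copper, between the lines, 4 of the targets were higher and 5 lower in KO cells, where 5.77% and 8.03% of all genes were. CCND1, the cyclin D1 gene, was higher (1.54 ± 0.23, adjusted p = 0.0012). Which factor acted on any of these genes was not measured.

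Genes with the pattern most like each AP-1 gene were taken by Pearson's r of log2 CPM over the 12 libraries, among 9653 genes averaging at least 5 CPM. All points share the libraries, their depth and the 3 that stood apart, so r is a description. FOS was most like SLC7A11, the cystine transporter subunit (0.986), GPATCH2L (0.984) and ARC, an activity-regulated immediate early gene (0.978). FOSB was most like PSMD12, a proteasome subunit (0.991), ARC (0.990) and TAX1BP1, an autophagy receptor (0.989). For FOSL1 the closest were FAM219A (0.986), MFSD11 (0.979) and PHLDA2 (0.973). For FOSL2 they were AMD1, an enzyme of polyamine synthesis (0.989), ERV3-1 (0.980) and ARFGAP3 (0.978). JUN was closest to RSRC2 (0.983), TRIB1 (0.967) and DUSP5 (0.966), and ATF3 to GABARAPL1, an autophagy protein of the ATG8 family (0.990), MT1G, a metallothionein (0.983), and DUSP5 (0.978). JUNB was closest to TOMM34 (0.987), the metallothionein MT1E (0.985) and ZNF281 (0.985). JUND was closest to AVL9 (0.983), RSPRY1 (0.976) and METTL21A (0.969). Between the AP-1 genes themselves, r was 0.980 for FOS and FOSB and 0.971 for JUN and ATF3, and -0.666 for JUNB and JUND.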

How the data were processed

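HepG2 RNA was measured in 12 libraries, 4 groups of 3. Libraries were made from 100 ng of RNA with a QuantSeq 3′ kit and sequenced as 75 bp single reads of 300 bp fragments, per the labels' protocols. The submitters' processing notes name STAR 2.3.0, HTSeq and hg19. For annotation, strand setting and filters, nothing is given in the sources used here. The authors deposited raw, unnormalized counts for 47634 versioned Ensembl IDs, matched to symbols by gene tables and GENCODE v29. Without molecular identifiers, intervals and floors (3 counts) cover counting error only.

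Counts were tested in edgeR 4.0.16 (R 4.3.3): filterByExpr left 11051 genes, libraries were scaled by TMM, and a robust quasi-likelihood fit on 4 group means of all 12 libraries (biological coefficient of variation 29.1%) gave 5 comparisons. P-values were adjusted by Benjamini-Hochberg over the 11051 genes and called at 0.05. The SE is the log2 fold change divided by the t quantile of its p-value. CPM divides by the total count. For groups with 1 to 3 counts, ratios of pooled CPM carry an exact 95% interval. Pattern correlations used edgeR log2 CPM with a prior count of 2. Alternatives were RLE scaling, no filter, DESeq2 1.42.0, limma voom (limma 3.58.1), the replicate block, the 2 groups compared alone, each library left out and the 3 that stood apart left out. The fit was also run on simulated counts. These were drawn around a common profile without libraries that stand apart, so that run does not cover their effect.

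The AP-1 genes, the 5 lists, their tests and the libraries left out were chosen with earlier results of these data known. For each list, named genes are among the up to 4 with the smallest adjusted p in a comparison. A gene named in one line may also be given in the other.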

Additional observations from a re-analysis of the deposited data

Results flagged for a closer look

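The CPM ranges of FOSL2 separated in opposite directions with copper in the 2 lines: all 3 ATP7B KO copper libraries (29.9 to 41.0 CPM) lay above all 3 KO untreated libraries (10.2 to 28.4 CPM), and all 3 wild type copper libraries (41.1 to 54.9 CPM) lay below all 3 wild type untreated libraries (57.8 to 71.8 CPM). Ranges did not overlap for 44.3% of genes tested in KO cells and 48.4% in wild type cells. In edgeR's quasi-likelihood test FOSL2 rose in KO cells (log2 fold change 1.07 ± 0.29, adjusted p = 0.016). That call was lost in 4 of 19 alternatives, and the value was 0.51 ± 0.21 without the 3 libraries that stood apart. The wild type value of -0.40 ± 0.27 did not pass (adjusted p = 0.35). The difference of the copper effects, KO minus wild type, was 1.47 ± 0.40 on the log2 scale and did not pass the threshold in edgeR's quasi-likelihood test (adjusted p = 0.052). Over the alternatives its adjusted p ran from 0.00028 to 0.12. The lowest was without KO untreated replicate 3, where 52.4% of all genes were called.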

How the results depend on the processing

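No AP-1 gene that rose with copper in wild type cells lost its call under any alternative, with 6 to 6 genes called without 1 library. In KO cells 6 to 8 were called without 1 library. For ATP7B KO against wild type untreated, 1 of 8 was called when only the 2 groups were fitted, 4 with no filter on low counts (JUNB added, adjusted p = 0.041), and 2 to 3 without 1 library. Of all genes, 11.8% were called there with only the 2 groups and 17.6% with no filter. For KO against wild type in copper, none being called with all libraries, 1 was called with no filter, 2 by DESeq2, 1 by limma voom, 3 with only the 2 groups, 6 without the 3 libraries that stood apart, and 0 to 6 without 1 library. In that comparison 8.05% of all genes were called with no filter, 18.3% by DESeq2, 14.7% by limma voom and 24.6% with only the 2 groups. For the difference of copper effects, 1 was called with no filter, 1 by DESeq2 and 0 to 3 without 1 library. There 9.77% of all genes were called with no filter and 16.6% by DESeq2. Without the 3 libraries that stood apart, JUND turned to 0.089 for copper in KO cells, to -1.10 for KO against wild type untreated and to 0.48 for the difference of copper effects, and JUNB turned to -0.15 for KO against wild type in copper. JUND untreated, KO against wild type, was at -0.11 in limma voom, and FOS, KO against wild type in copper, at -0.042 with no filter, -0.00077 in DESeq2 and -0.0089 with only the 2 groups. Without 1 library JUND ran from -0.44 to 0.039 for copper in wild type cells and from -0.38 to 0.47 for KO against wild type untreated, and in copper FOS ran from -0.24 to 0.36 and JUNB from -0.11 to 0.88 for KO against wild type. The cause was not tested. Over all genes, calls without 1 library ran from 743 to 3742 for copper in wild type (1648 with all), 2378 to 6459 for copper in KO (3721), 2011 to 6581 for KO against wild type untreated (3522), 686 to 3533 in copper (1525) and 13 to 5792 for the difference (545). With only the 2 groups they were 3108, 1895, 1305 and 2722 for the first 4 comparisons. Without the 3 libraries that stood apart they were 4702 for copper in wild type, 4443 for KO against wild type in copper and 1034 for the difference, which had 2366 with no filter, 1831 in DESeq2, 160 in limma voom and 113 with the replicate block. Replicate numbers are shared across groups without a stated pairing. Deviations of same-numbered libraries correlated at -0.22 to 0.61 (median -0.078), over 0.1 in 2 of 18 pairs, and 4 of 12 libraries matched best with their own number. The replicate block changed no AP-1 call, with 6 called for copper in wild type, 8 for copper in KO, 3 for KO against wild type untreated, 0 in copper and 0 for the difference, while JUND untreated turned to -0.079. With a prior count of 1, 22 of the 24 genes named for a similar pattern stayed among the closest 3, and by Spearman's rho they ranked 1 to 149. CPM below 3.07 in the shallowest library rests on under 3 counts, which limits FOS, FOSB, FOSL1 and ATF3 in untreated KO cells. JUNB had 3 counts each in KO untreated replicates 1 and 2, which limits its values without replicate 3.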
